A study of Mus musculus with 22 samples.

Results

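The genes described here are the Wnt ligands, the proteins that let a cell secrete them, their receptors and secreted antagonists, and the Dishevelled adaptors, measured in mouse embryonic stem (ES) cells. They were found by gene symbol in the array annotation: every Wnt, Fzd, Sfrp and Dvl gene, together with Lrp5, Lrp6, Porcn, Wls, Ror1, Ror2 and Ryk. The search returned 88 probe sets for 43 genes, out of 18193 genes with a probe set of their own. These are 19 ligands, 2 secretion genes, 10 Frizzled receptors, 2 LRP co-receptors, 3 alternative receptors, 4 secreted Frizzled-related proteins and 3 Dishevelled genes. For the 27 genes with several probe sets the one with the highest mean over all arrays was used.

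The cells were Rex1GFPd2 ES cells, a line that carries a destabilised GFP reporter at Rex1 (Zfp42), a gene of the undifferentiated state. All were grown without serum in N2 and B27 medium and were reverse-transfected with siRNA. The first arm received control siRNA and stayed in 2i medium, which holds the MEK inhibitor PD and the GSK3 inhibitor CHIR. CHIR stabilises β-catenin without a Wnt ligand. The second arm received control siRNA and the third received siRNA against YAP and TAZ. Both of these arms were moved to medium with PD alone 24 h after transfection, so that they lacked CHIR. The labels state this medium change for those arms alone. Every arm was harvested at 72 h, and all share PD and transfection. Each arm used 2 siRNAs or siRNA mixes of its kind, with 7, 7 and 8 arrays in the 2i control, PD-only control and PD-only YAP/TAZ siRNA arms. The labels call the arrays biological replicates and do not say that they came from separate days or cultures, so the p-values measure the spread between these samples.

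Wnt proteins are lipid-modified by Porcn in the endoplasmic reticulum and carried to the cell surface by Wls. At the receiving cell they bind a Frizzled receptor, with Lrp5 or Lrp6 for the β-catenin branch or with Ror1, Ror2 or Ryk for the other branches. Dishevelled then couples the receptor to the inside of the cell. In ES cells, secreted Wnt and GSK3 inhibition both favour self-renewal. YAP (Yap1) and TAZ (Wwtr1) are transcriptional co-activators of the Hippo pathway that act with TEAD factors, and the study asks how they take part in the β-catenin destruction complex.

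All values are RMA-summarised log2 expression values, which can be compared between arrays for 1 probe set but not between probe sets. The targeted genes were lower in the knockdown arm. The log2 level of Yap1 was 9.67 to 9.91 there against 11.00 to 11.07 in the PD-only controls, and that of Wwtr1 was 9.18 to 9.41 against 10.25 to 10.34. Axin2, a standard β-catenin target, stood at 9.02 to 9.13 in 2i control, 7.01 to 7.35 in PD-only control and 8.86 to 9.09 with YAP/TAZ siRNA. The average of 8 ES cell markers was 12.39 to 12.45 in 2i control, 12.11 to 12.15 in PD-only control and 12.27 to 12.30 with YAP/TAZ siRNA, and 7 of 8 were called higher and 1 lower in 2i control than in PD-only control. Some markers of other cell types were higher in the PD-only control arm: the average of 8 trophoblast markers was 8.67 to 8.74 there, 6.03 to 6.15 in 2i control and 6.46 to 6.60 with YAP/TAZ siRNA. The average of 8 fibroblast markers was 6.69 to 6.83, 4.62 to 4.87 and 4.72 to 4.90 in the same order. Of the trophoblast list, 6 of 8 were called lower and 1 higher in 2i control than in PD-only control. In PD-only control 2 of these 8 were below the median of all genes. Elf5, a defining trophoblast stem cell factor, was among them at 3.54. Of the fibroblast list, 7 of 8 were called lower in 2i control. The average of 8 primitive endoderm markers was 5.39 to 5.55 in PD-only control, 4.67 to 4.80 in 2i control and 4.64 to 4.82 with YAP/TAZ siRNA, with 5 of 8 lower and 0 higher in 2i control. That of 6 neural markers was 6.28 to 6.34, 5.45 to 5.72 and 6.12 to 6.36, with 4 lower and 1 higher in 2i control. That of 7 mesendoderm markers was 4.87 to 5.11, 4.66 to 4.85 and 4.95 to 5.18, with 2 lower and 0 higher. The part of these markers in the results below was not tested. In bulk RNA, fewer cells of a type and less RNA per cell cannot be told apart. The 3′ minus 5′ signal of Actb, a measure of RNA integrity and labelling, was 0.66 to 0.75 in PD-only control, below every array of 2i control (0.87 to 1.19) and of YAP/TAZ siRNA (0.88 to 1.07). These differences had adjusted p = 0.00117 and p = 0.000622 in a two-sided exact permutation test. The same measure of Gapdh was −0.09 to −0.06 in PD-only control, −0.04 to 0.04 in 2i control and −0.07 to 0.05 with YAP/TAZ siRNA. The poly-A spike signal was 8.70 to 9.12 in 2i control, above the 8.09 to 8.57 of PD-only control and the 8.16 to 8.54 of YAP/TAZ siRNA (adjusted p = 0.00117 and p = 0.000622, exact permutation test). Array medians were 5.54 to 5.55 in PD-only control, 5.51 to 5.54 in 2i control and 5.51 to 5.52 with YAP/TAZ siRNA. The part of these measures in the results was not tested, apart from a fit with the Actb measure as a covariate. In it, the 9 genes of the largest differences kept their calls against PD-only control. The Actb values of PD-only control overlapped those of neither other arm, so this fit cannot separate the measure from the arm.

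The promoters of 4 genes with large differences are shown first, because the arms differ in CHIR, which acts on β-catenin, and in YAP/TAZ, and the DNA-bound partners of these proteins, TCF/LEF and TEAD, recognise short words. The sequences are RefSeq, build GRCm38.p6, 5′ to 3′ on the gene's strand, the 250 bases before the start. Capitals mark a TCF/LEF word (CTTTGAT or CTTTGTT, either strand) or a TEAD word (GGAATG, either strand). Wls (chr3:159839400-159839649, + strand) and Wnt4 (chr4:137277385-137277634, + strand) were lower in both arms than in PD-only control. Fzd10 (chr5:128600856-128601105, + strand) and Wnt5b (chr6:119449387-119449636, − strand) were higher in both.
Wls: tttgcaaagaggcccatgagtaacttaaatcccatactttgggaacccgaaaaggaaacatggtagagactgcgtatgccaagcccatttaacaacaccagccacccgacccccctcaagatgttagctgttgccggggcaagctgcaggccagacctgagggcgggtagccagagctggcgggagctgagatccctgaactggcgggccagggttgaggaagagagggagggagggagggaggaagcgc
Wnt4: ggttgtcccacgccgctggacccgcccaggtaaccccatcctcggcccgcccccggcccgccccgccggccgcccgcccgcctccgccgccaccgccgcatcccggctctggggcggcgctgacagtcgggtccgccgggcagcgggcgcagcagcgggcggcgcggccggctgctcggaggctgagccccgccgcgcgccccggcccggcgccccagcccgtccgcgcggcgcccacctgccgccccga
Fzd10: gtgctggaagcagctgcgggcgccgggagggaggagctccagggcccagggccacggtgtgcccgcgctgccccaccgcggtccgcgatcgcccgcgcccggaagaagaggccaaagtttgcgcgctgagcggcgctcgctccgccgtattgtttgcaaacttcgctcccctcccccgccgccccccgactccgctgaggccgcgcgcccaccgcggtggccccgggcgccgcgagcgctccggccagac
Wnt5b: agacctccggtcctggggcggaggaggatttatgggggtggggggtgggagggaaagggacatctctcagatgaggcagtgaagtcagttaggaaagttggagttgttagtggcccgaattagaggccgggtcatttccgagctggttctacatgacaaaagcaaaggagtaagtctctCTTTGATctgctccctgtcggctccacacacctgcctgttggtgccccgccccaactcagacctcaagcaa

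Of the stretches shown, only that of Wnt5b holds a word, a CTTTGAT that begins 71 bases before the start. Wnt5b has several starts, and this one was chosen for print because it holds a TCF/LEF word. The other Wnt5b starts hold none. GC content was 58% in the Wls stretch, 85.2% in Wnt4, 76.4% in Fzd10 and 55.6% in Wnt5b, against a median of 52.4% over the same stretch of 32851 mouse promoters. CG pairs numbered 8, 44, 37 and 7 in the same order, against a median of 6. In windows of 300 bases, from 250 before to 50 after the start, 30 of the 43 genes had an entry, with 33 promoters. A TCF/LEF word was in 4 of them (12.1%), those of Fzd7, Wnt11, Wnt3 and Wnt5b, against 9.33% of all promoters. A TEAD word was in 2 (6.06%), those of Dvl2 and a second Wnt5b start, against 14.7% of all promoters. The windows of Wls, Wnt4, Wnt9a, Fzd10, Ror1 and Ror2 held neither word. A word match is a description of these letters and does not show that a factor binds there, and its lack shows nothing about the factor.

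In both comparisons with PD-only control, genes at many points of the pathway were called, in both directions, as were large shares of all genes (given below). Against PD-only control, the 2i control arm had more RNA of the Wnt acyltransferase Porcn and of the receptors Fzd10 and Ror2, and less of the ligands Wnt4 and Wnt9a, the Wnt carrier Wls and the receptor Fzd2. The YAP/TAZ siRNA arm differed from PD-only control in those genes too, although it had no CHIR. The genes were tested with limma's moderated test over all 18193 genes, and a call means a Benjamini-Hochberg adjusted p below 0.05. In 2i control minus PD-only control, 13 of the 43 genes were called higher (30.2%, against 31.3% of all genes) and 15 lower (34.9%, against 26.7%). A difference of at least 2-fold was called higher for 4 (9.30%, against 1.69% of all genes) and lower for 4 (9.30%, against 4.12%). In YAP/TAZ siRNA minus PD-only control, 14 were called higher (32.6%, against 35.5%) and 16 lower (37.2%, against 26.3%). Of these, 4 were at least 2-fold higher (against 1.9% of all genes) and 4 at least 2-fold lower (against 4.47%). The shares called at any size were thus near the background for the higher calls. For the lower calls they were above it, a difference that was not tested. The median absolute log2 difference was 0.25 for the 43 genes and 0.15 for all genes in the first comparison, and 0.32 and 0.17 in the second. The 2 comparisons share the 7 PD-only control arrays.

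**Figure D1:**
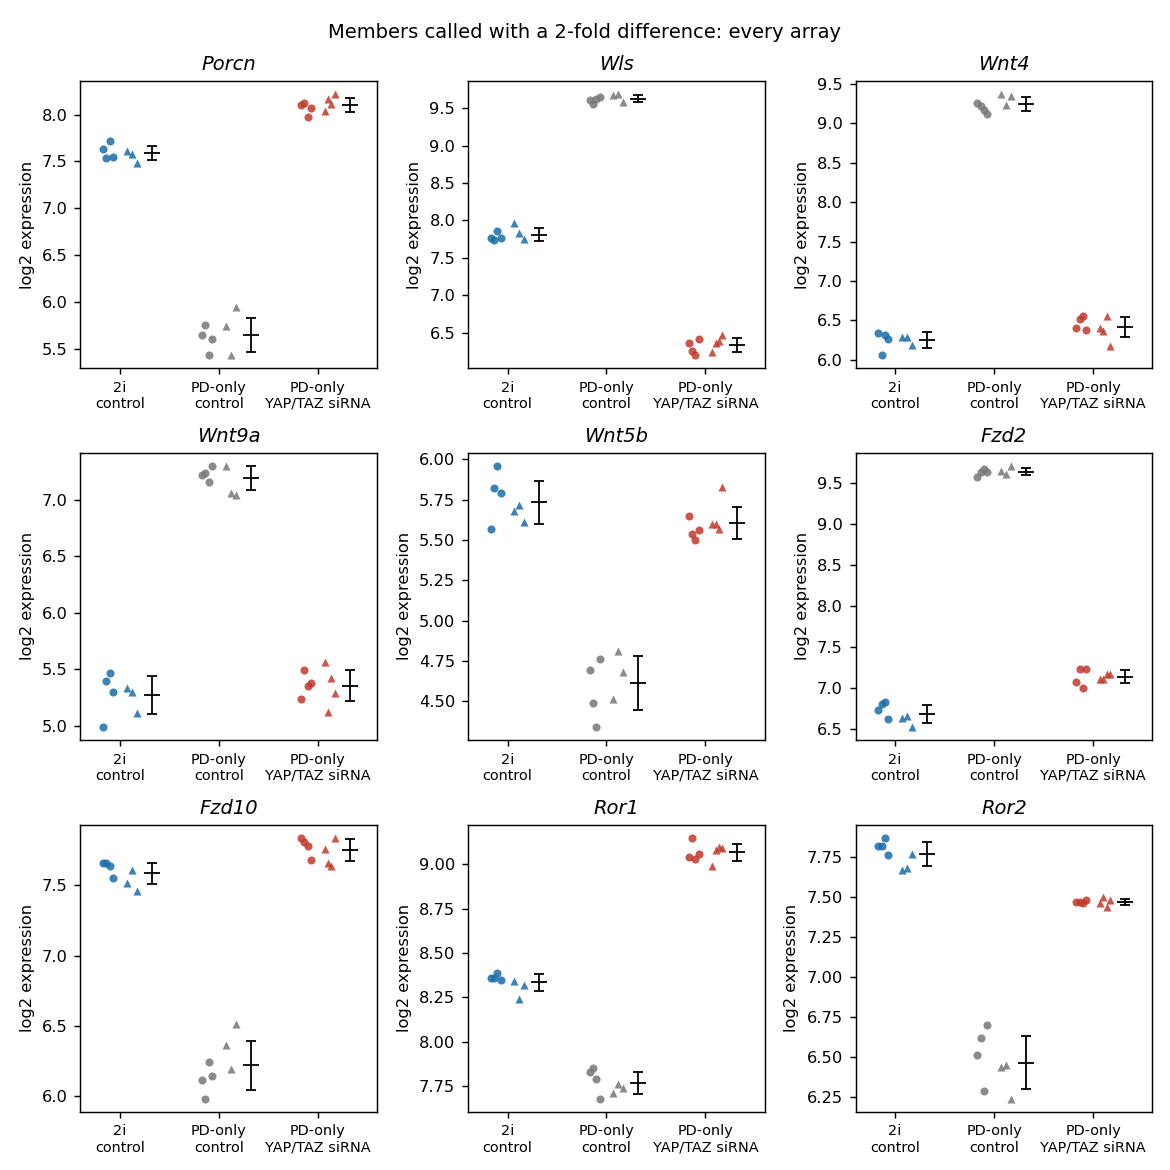
Log2 expression (y axis, a separate scale per gene) on every array of the 3 arms (x axis) for the 9 genes with a called difference of at least 2-fold. Circles are siRNA or mix 1 of an arm and triangles siRNA or mix 2, and the black mark is the mean with its SD over the 7, 7 or 8 arrays. In all 9 genes the PD-only control arrays stand apart from both other arms. The genes were chosen for a difference on these same arrays, so this is no separate support.

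Among the ligands, Wnt4 showed the largest difference. Wnt4 is a ligand of kidney, gonad and mammary development. Its log2 level was 9.12, 9.23 and 9.37 (lowest, median and highest) in PD-only control, 6.06, 6.29 and 6.34 in 2i control, and 6.18, 6.40 and 6.56 with YAP/TAZ siRNA. The PD-only controls lay far above both other arms, whose arrays overlapped each other. The log2 difference was −3.00 ± 0.05 (SE) for 2i control minus PD-only control (8.01-fold, limma adjusted p = 2.0e-20) and −2.83 ± 0.05 for YAP/TAZ siRNA minus PD-only control (7.13-fold, limma adjusted p = 2.5e-20). A second, dimmer Wnt4 probe set gave −2.26 and −2.06.

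Wnt9a, a ligand with roles in joint development in the mouse, followed the same order of arms. Its level was 7.04, 7.22 and 7.30 in PD-only control, 4.99, 5.30 and 5.47 in 2i control, and 5.12, 5.37 and 5.56 with YAP/TAZ siRNA, again with no overlap between PD-only control and the rest. The log2 differences from PD-only control were −1.91 ± 0.08 and −1.83 ± 0.07 (limma adjusted p = 7.4e-15 and 7.6e-15). Its other probe set, with a mean of 3.32 over all arrays, gave 0.10 and 0.08 and was not called. Wnt3a, the neighbouring gene of Wnt9a on chromosome 11 and the ligand commonly given to ES cells, was not called in any comparison. Its median level was 6.40 in 2i control, 6.39 in PD-only control and 6.40 with YAP/TAZ siRNA, and its log2 differences were 0.03 ± 0.06, 0.02 ± 0.06 and −0.01 ± 0.06.

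Wnt5b ran the other way. Wnt5b is a ligand mostly tied to β-catenin-independent signalling. It stood at 4.34, 4.68 and 4.81 in PD-only control, 5.57, 5.72 and 5.96 in 2i control, and 5.50, 5.59 and 5.83 with YAP/TAZ siRNA. All PD-only controls were below every other array. The mean of Wnt5b was below the median of all genes in every arm. The log2 differences were 1.11 ± 0.07 and 0.99 ± 0.07 (limma adjusted p = 1.5e-11 and 4.8e-11), and the second probe set gave 1.07 and 1.12. Wnt5a, its paralogue, was lower in both arms than in PD-only control. Its level was 4.42, 4.96 and 5.46 in PD-only control, 3.94, 4.18 and 4.35 in 2i control, and 3.97, 4.12 and 4.36 with YAP/TAZ siRNA. The log2 differences were −0.72 ± 0.13 and −0.75 ± 0.12. A second Wnt5a probe set of nearly the same mean gave larger differences, −2.29 ± 0.10 and −2.50 ± 0.09.

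Wnt6 also fell, by 0.59 and 0.57 on the log2 scale (SE 0.06 for both), and its second probe set gave −1.03 and −1.07. Wnt10a, next to Wnt6 on chromosome 1, fell by 0.25 and 0.26. These Wnt10a calls rest on siRNA 1 of each kind: its arrays alone gave −0.47 and −0.41, while those of siRNA 2 gave −0.03 and −0.11 and no call. Wnt3, a ligand needed for gastrulation in the mouse, had another order of arms. Its level was 3.34, 3.47 and 3.61 in PD-only control, 3.09, 3.29 and 3.50 in 2i control, and 3.58, 3.86 and 4.51 with YAP/TAZ siRNA. It rose by 0.42 ± 0.10 with YAP/TAZ siRNA against PD-only control (limma adjusted p = 9.1e-04), while its difference of −0.19 ± 0.10 in 2i control was not called. Its mean stood at the 7.62 to 15.4 percentile of all genes in the 3 arms.

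Of the 19 ligands, 2 were called higher and 6 lower in 2i control than in PD-only control, and 11 were not called. The shares of all genes were 31.3% higher and 26.7% lower. With YAP/TAZ siRNA the counts were also 2, 6 and 11, against 35.5% higher and 26.3% lower of all genes. The remaining calls were small: Wnt9b (0.23) and Wnt2b (−0.17) in 2i control, and Wnt10b (−0.21) with YAP/TAZ siRNA. A dimmer Wnt9b probe set was called higher in both comparisons, at 0.23 and 0.15. Wnt1, Wnt2, Wnt3a, Wnt7a, Wnt7b, Wnt8a, Wnt8b, Wnt11 and Wnt16 were called in neither comparison. Their differences lay within 0.18 in size, with SEs of 0.05 to 0.10. Dimmer probe sets of 2 of them were called: one of Wnt7a was lower in both comparisons (−0.54 and −0.49), and another was higher with YAP/TAZ siRNA (0.21). Both dimmer Wnt8b probe sets were lower with YAP/TAZ siRNA (−0.34 and −0.16).

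The 2 secretion genes moved in opposite directions. Porcn, the acyltransferase that every vertebrate Wnt needs, had log2 levels of 5.43, 5.64 and 5.94 in PD-only control, 7.48, 7.58 and 7.72 in 2i control, and 7.98, 8.11 and 8.22 with YAP/TAZ siRNA. The 3 arms did not overlap, and the knockdown arm was the highest. The log2 differences from PD-only control were 1.93 ± 0.06 (3.81-fold) and 2.45 ± 0.06 (5.45-fold), with limma adjusted p = 3.7e-16 and 3.2e-18. Porcn has a single probe set on the array.

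Wls, the carrier that takes Wnt proteins to the cell surface, ran from high in PD-only control to low in the knockdown. Its level was 9.56, 9.63 and 9.69 in PD-only control, 7.74, 7.77 and 7.97 in 2i control, and 6.20, 6.36 and 6.47 with YAP/TAZ siRNA. No array of one arm reached the range of another. The log2 differences from PD-only control were −1.82 ± 0.04 (3.52-fold) and −3.30 ± 0.04 (9.84-fold), with limma adjusted p = 1.2e-18 and 5.5e-23. Of the 3 other Wls probe sets, 2 gave −1.82 and −1.43 in 2i control and −3.29 and −2.91 with YAP/TAZ siRNA. The fourth had a mean of 2.93 and gave 0.04 and −0.02.

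Among the 10 Frizzled receptors, Fzd2 and Fzd10 had the largest differences, with opposite signs. Fzd2 was at 9.58, 9.64 and 9.71 in PD-only control, 6.53, 6.66 and 6.83 in 2i control, and 7.0, 7.14 and 7.23 with YAP/TAZ siRNA. The arms did not overlap, and 2i control was the lowest. The log2 differences were −2.96 ± 0.04 (7.81-fold) and −2.50 ± 0.04 (5.67-fold), with limma adjusted p = 2.6e-22 and 1.7e-21. All 3 Fzd2 probe sets were called lower, the others by −3.22 and −2.38 in 2i control and by −2.72 and −2.25 with YAP/TAZ siRNA.

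Fzd10 was at 5.98, 6.19 and 6.51 in PD-only control, 7.46, 7.61 and 7.66 in 2i control, and 7.64, 7.77 and 7.84 with YAP/TAZ siRNA. The PD-only controls were below all others, while the other arms touched. The log2 differences were 1.34 ± 0.05 (2.54-fold) and 1.52 ± 0.05 (2.86-fold), with limma adjusted p = 3.1e-15 and 1.9e-16. A dim second probe set, with a mean of 3.09, gave 0.19 and 0.32.

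The other Frizzled genes differed by less than 1 on the log2 scale. Fzd7, a receptor well expressed in pluripotent cells, had small differences: its median was 10.47 in PD-only control, 10.30 in 2i control and 10.16 in the knockdown arm, and it fell by 0.16 and 0.33 (SE 0.02 for both). Fzd1 fell by 0.48 and 0.64, and Fzd3 by 0.31 and 0.66. Of the 5 other Fzd3 probe sets, 1 was called with YAP/TAZ siRNA (−0.34) and the others gave −0.10, −0.08, 0.12 and 0.05, so that the average of all was −0.17. Fzd9 rose by 0.36 and 0.61, Fzd4 by 0.21 and 0.29, and Fzd5 by 0.50 and 0.32. The dimmer Fzd5 probe set gave −0.11 in 2i control, a call in the opposite direction, and 0.03 with YAP/TAZ siRNA. Fzd6, which acts in planar cell polarity in the mouse, was at 7.21, 7.33 and 7.47 in PD-only control, 7.10, 7.15 and 7.25 in 2i control, and 6.15, 6.41 and 6.93 with YAP/TAZ siRNA. Every knockdown array lay below the others, with a wide spread of its own. Fzd6 fell by 0.83 ± 0.08 with YAP/TAZ siRNA (limma adjusted p = 2.2e-08), and its difference of −0.18 ± 0.09 in 2i control was not called. Both dimmer Fzd6 probe sets gave no call with YAP/TAZ siRNA (0.04 and −0.06), and the average of all was −0.28. Fzd8 was called in neither comparison (−0.06 ± 0.05 and 0.01 ± 0.05).

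The LRP co-receptors, which carry the signal to Axin in the β-catenin branch, had modest differences. The Lrp6 level was 8.48, 8.54 and 8.57 in PD-only control, 8.38, 8.49 and 8.60 in 2i control, and 8.02, 8.13 and 8.19 with YAP/TAZ siRNA. The knockdown arrays lay below both control arms, which overlapped. Lrp6 fell by 0.41 ± 0.03 with YAP/TAZ siRNA (limma adjusted p = 1.1e-10) and differed by −0.04 ± 0.03 in 2i control, where it was not called. A second Lrp6 probe set was called higher in 2i control, by 0.40. Lrp5 fell by 0.20 and 0.22 (SE 0.07 for both), and the arms overlapped.

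**Figure D2:**
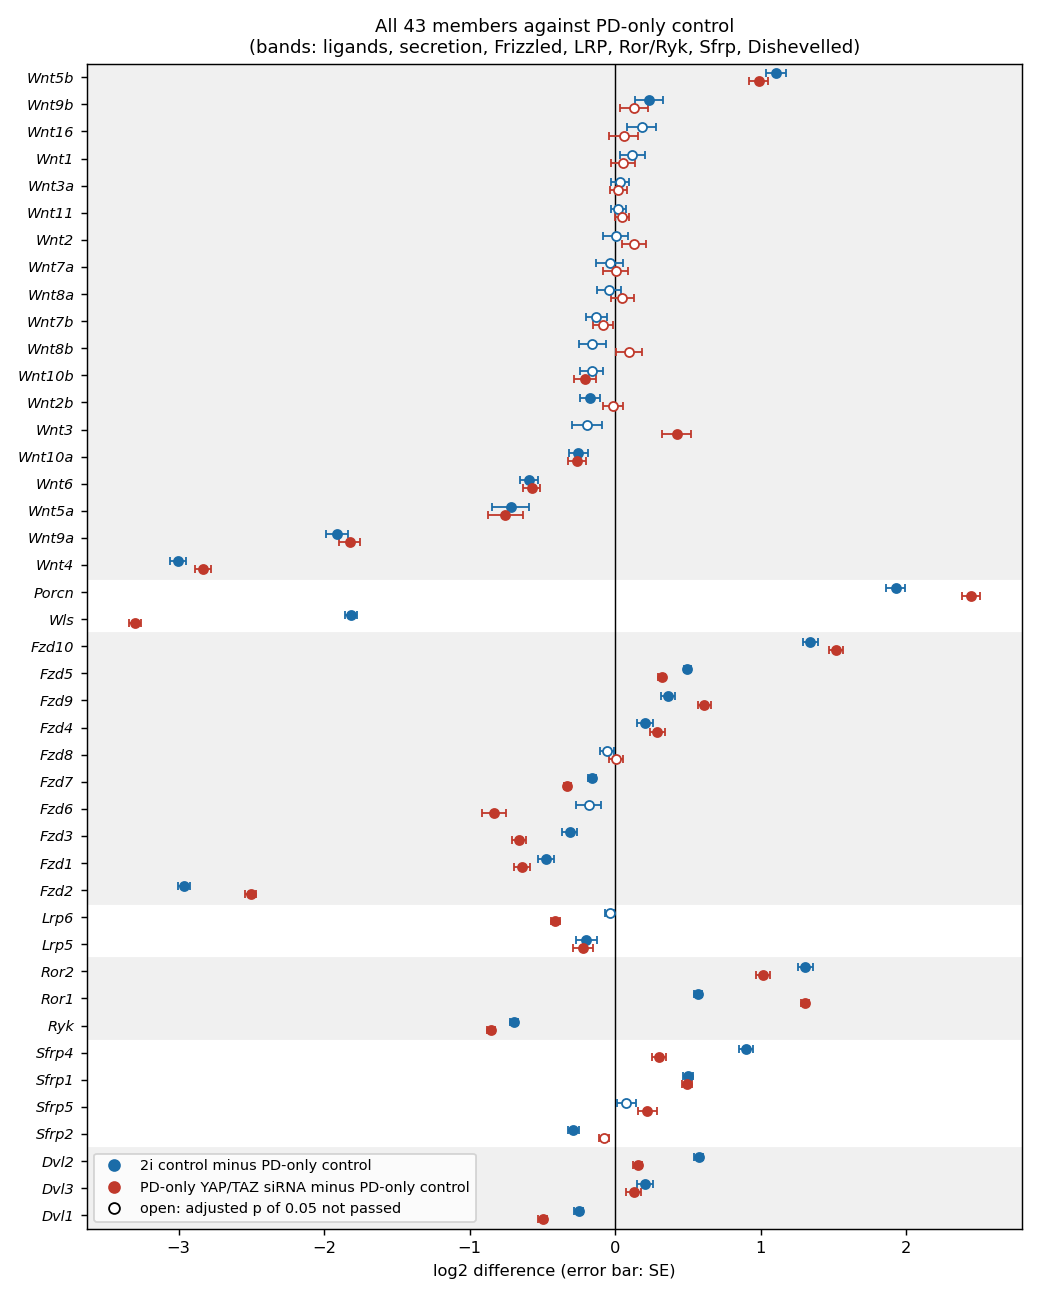
Log2 difference from PD-only control (x axis) with its SE for all 43 genes, grouped by role and sorted within a role. Blue points are 2i control and red points PD-only YAP/TAZ siRNA, both minus the same 7 PD-only control arrays, and open points did not pass an adjusted p of 0.05. Wnt4, Wnt9a, Wls and Fzd2 stand to the left in both comparisons, and Porcn, Fzd10 and Ror2 to the right.

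The Ror receptor kinases rose and Ryk fell. Ror2, a receptor for Wnt5a in mouse limb and skeleton, had levels of 6.24, 6.45 and 6.70 in PD-only control, 7.67, 7.77 and 7.87 in 2i control, and 7.44, 7.47 and 7.50 with YAP/TAZ siRNA. The 3 arms did not overlap. The log2 differences were 1.31 ± 0.05 and 1.02 ± 0.05 (limma adjusted p = 3.1e-15 and 9.5e-14), and the second probe set gave 0.58 and 0.76.

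Ror1 had levels of 7.68, 7.76 and 7.85 in PD-only control, 8.24, 8.35 and 8.39 in 2i control, and 8.99, 9.07 and 9.15 with YAP/TAZ siRNA. The knockdown arrays were the highest and no arms overlapped. The log2 differences were 0.57 ± 0.03 and 1.31 ± 0.03 (limma adjusted p = 1.1e-12 and 5.8e-19). The other 2 Ror1 probe sets, with means of 4.30 and 3.72, gave 0.09 and 0.31 in 2i control and 0.18 and 0.24 with YAP/TAZ siRNA. Ryk, a receptor with a kinase-like domain thought to be inactive, had medians of 10.40 in PD-only control, 9.72 in 2i control and 9.55 in the knockdown arm. It fell by 0.70 and 0.85 (SE 0.03 for both).

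Of the 4 secreted Frizzled-related proteins, which bind Wnt outside the cell, 2 rose and 1 fell in 2i control, and 3 rose with YAP/TAZ siRNA. Among all genes, 31.3% were called higher and 26.7% lower in 2i control, and 35.5% and 26.3% with YAP/TAZ siRNA. Sfrp1 had medians of 8.73 in PD-only control, 9.27 in 2i control and 9.26 in the knockdown arm, and rose by 0.50 and 0.49 (SE 0.03 for both). Sfrp4 had medians of 6.81, 7.73 and 7.10 in the same order and rose by 0.90 ± 0.05 and 0.30 ± 0.05. Sfrp2 fell by 0.29 ± 0.04 in 2i control and was not called with YAP/TAZ siRNA (−0.08 ± 0.04). Sfrp5 was called with YAP/TAZ siRNA (0.22 ± 0.06) and not in 2i control (0.08 ± 0.07).

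All 3 Dishevelled genes were called in both comparisons, with differences under 0.6. The shares of all genes called higher and lower were 31.3% and 26.7% in 2i control, and 35.5% and 26.3% with YAP/TAZ siRNA. Dvl1 had medians of 9.99 in PD-only control, 9.73 in 2i control and 9.48 in the knockdown arm, and fell by 0.25 and 0.50 (SE 0.03 for both). Dvl2 had medians of 8.58, 9.14 and 8.74 and rose by 0.57 and 0.16. A dimmer Dvl2 probe set gave 0.31 in 2i control, also called, and 0.02 with YAP/TAZ siRNA, not called. Dvl3 rose by 0.21 and 0.13. Its YAP/TAZ siRNA call was marginal (limma adjusted p = 0.046) and was lost on leaving out 1 array in 14 of 22 cases. In the same way the small 2i control calls of Wnt9b and Wnt2b were lost in 13 and 8 cases and that of Lrp5 in 2. With the Actb measure as a covariate, some calls were lost with little change in the difference: Dvl3 gave 0.20 and 0.12, Fzd4 gave 0.20 in 2i control, and Wnt10b gave −0.27 with YAP/TAZ siRNA. Others were lost with a smaller difference: Wnt10a gave −0.15 and −0.16, Fzd3 −0.23, Wnt2b −0.09 and Wnt9b −0.01 in 2i control, and Sfrp5 0.06 with YAP/TAZ siRNA. Wnt7b became called, at −0.39 and −0.35. With the second siRNA of each kind alone, on fewer arrays, 6 calls were lost in each comparison with PD-only control and 4 against 2i control. In 2i control these were Fzd4, Wnt10a, Wnt2b, Lrp5, Wnt9b and Dvl3. With YAP/TAZ siRNA they were Lrp5, Sfrp5, Wnt10b, Wnt10a, Dvl3 and Wnt3, whose difference was then 0.49. Against 2i control they were Wnt4, Fzd10, Fzd1 and Wnt8b. The first siRNA alone lost 2 in each comparison: Wnt2b and Wnt9b, Wnt10b and Sfrp5, and Fzd1 and Wnt8b.

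The third comparison set YAP/TAZ siRNA without CHIR directly against 2i control. The question is how far the 2 arms that both differ from PD-only control also differ from each other. Wls was the one gene with a called difference of at least 2-fold. It was lower in the knockdown by 1.48 ± 0.04 (2.79-fold, limma adjusted p = 1.0e-16), and 2 of its 3 other probe sets gave −1.46 and −1.48. No gene was called at least 2-fold higher. By construction this comparison is the difference between the other 2. In it, 9 of the 43 genes were called higher (20.9%, against 25.5% of all genes) and 12 lower (27.9%, against 22.8%). At least 2-fold, 0.632% of all genes were called higher and 0.879% lower, and of the 43 genes 0 and 1. The median absolute log2 difference was 0.16, against 0.11 over all genes.

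Of the genes called higher in the knockdown, Ror1 differed by 0.74 ± 0.03, Wnt3 by 0.62 ± 0.10, Porcn by 0.52 ± 0.06 and Fzd2 by 0.46 ± 0.04. Their arrays did not overlap between the 2 arms. Fzd9 (0.25), Wnt8b (0.25), Sfrp2 (0.21), Fzd10 (0.17) and Wnt4 (0.17) completed the list, and the Wnt8b call was lost on leaving out 1 array in 5 of 22 cases. Among the 12 lower genes were Fzd6 (−0.65 ± 0.08), Sfrp4 (−0.60 ± 0.05), Dvl2 (−0.42 ± 0.03), Lrp6 (−0.37 ± 0.03), Fzd3 (−0.35 ± 0.05) and Ror2 (−0.29 ± 0.05). Dvl1 was lower by 0.25 ± 0.03, and Fzd5, Fzd7, Fzd1 and Ryk by 0.16 to 0.18. Without probe sets marked as able to match more than 1 transcript, Dvl1 gave −0.04 and Ryk −0.07, and neither was called. For Ryk this left the dimmest of its 3 probe sets (mean 5.66). Its second probe set (mean 9.20) gave −0.18 and was called. The Fzd1 call was lost with the siRNAs of an arm pooled (−0.15), with the siRNA group as a random block (−0.14), and with siRNA 1 (−0.12) or siRNA 2 (−0.21) alone. Several of these calls rest on the probe set used. When all probe sets of a gene were averaged, the calls of Fzd3 (−0.03), Fzd5 (−0.02), Ror2 (−0.06) and Wnt8b (0.04) were lost, and Fzd7 gave 0.0012. The dimmer Fzd5 probe set was called higher, by 0.14.

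Of the ligands, 3 were called higher in this comparison (against 25.5% of all genes), 0 lower (against 22.8%), and 16 were not called. At an unadjusted p of 0.05 the count of lower ligands was 0 as well. For Wnt9a the difference was 0.09 with a 95% confidence interval of −0.06 to 0.24, and for Wnt5b −0.12 with an interval of −0.26 to 0.02. For Wnt6 the interval was −0.11 to 0.14 and for Sfrp1 −0.07 to 0.06. The interval for Wnt5a was wider, −0.29 to 0.22.

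**Figure D3:**
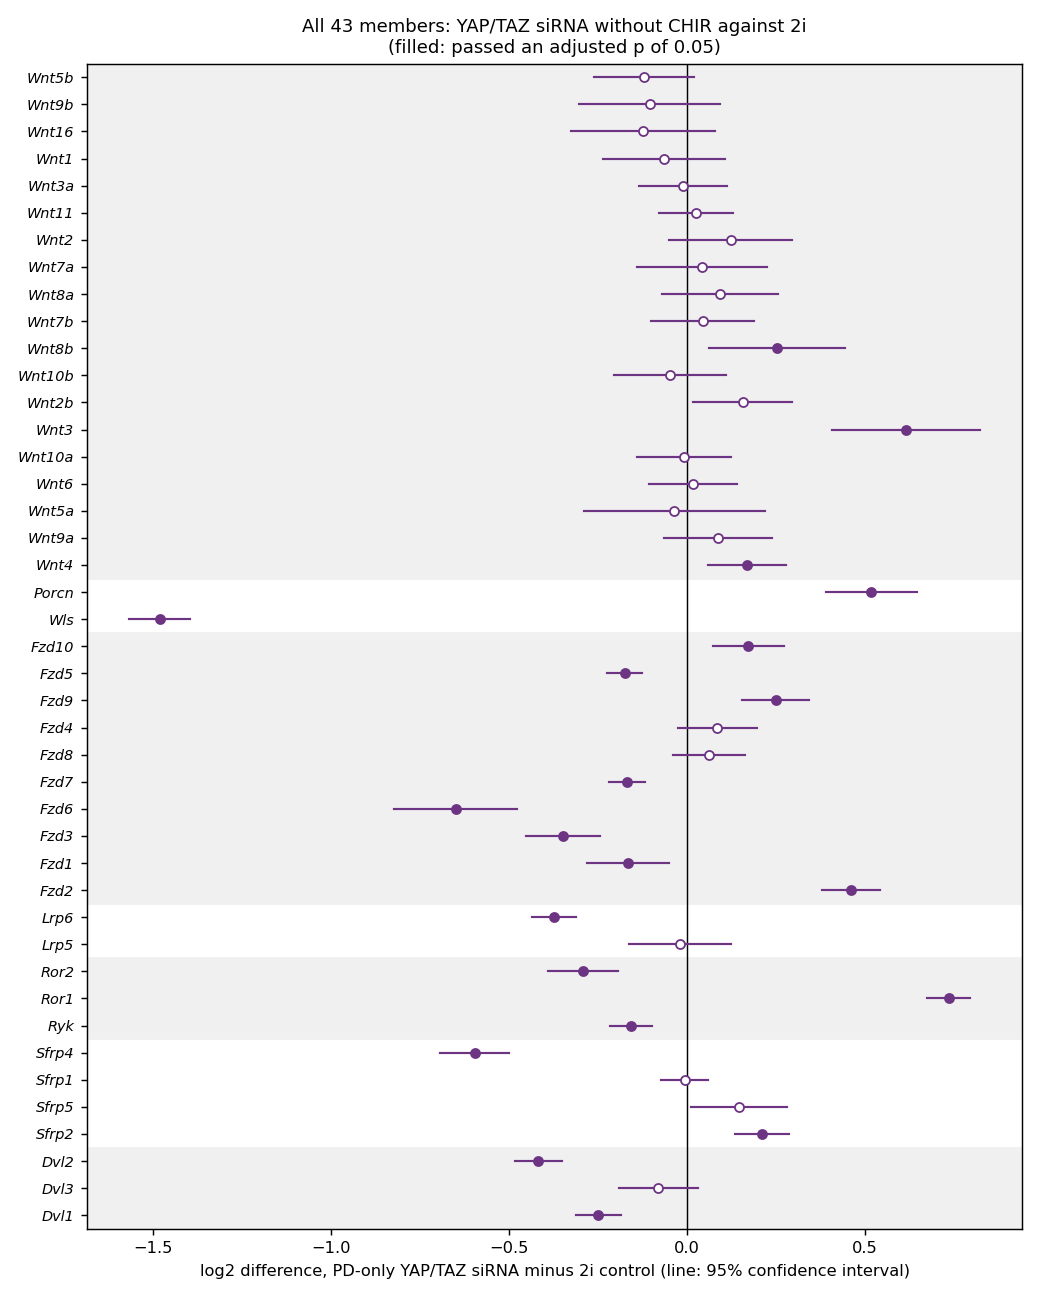
Log2 difference of PD-only YAP/TAZ siRNA minus 2i control (x axis) for all 43 genes, with the 95% confidence interval as a line. Filled points passed an adjusted p of 0.05. Wls, at −1.48, is the one gene beyond 1 in size.

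No gene was called between siRNAs of one kind. Between the YAP/TAZ mixes, between the control siRNAs in either medium, and for the effect of the medium between the control siRNAs, limma called 0 of 18193 genes. At an unadjusted p of 0.05 it picked 649, 769, 1450 and 949 genes, among them 0, 3, 6 and 4 of the 43. The largest differences of a member in the same order were −0.21 (Wnt16), 0.24 (Fzd10), 0.26 (Wnt10a) and 0.44 (Wnt10a). With the first siRNA of each kind alone, the Wls difference of YAP/TAZ siRNA from PD-only control was −3.31, and with the second −3.29. Those of Porcn were 2.46 and 2.43, and those of Wnt4 −2.73 and −2.94. Fzd10 varied more, with 1.66 and 1.37.

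**Figure D4:**
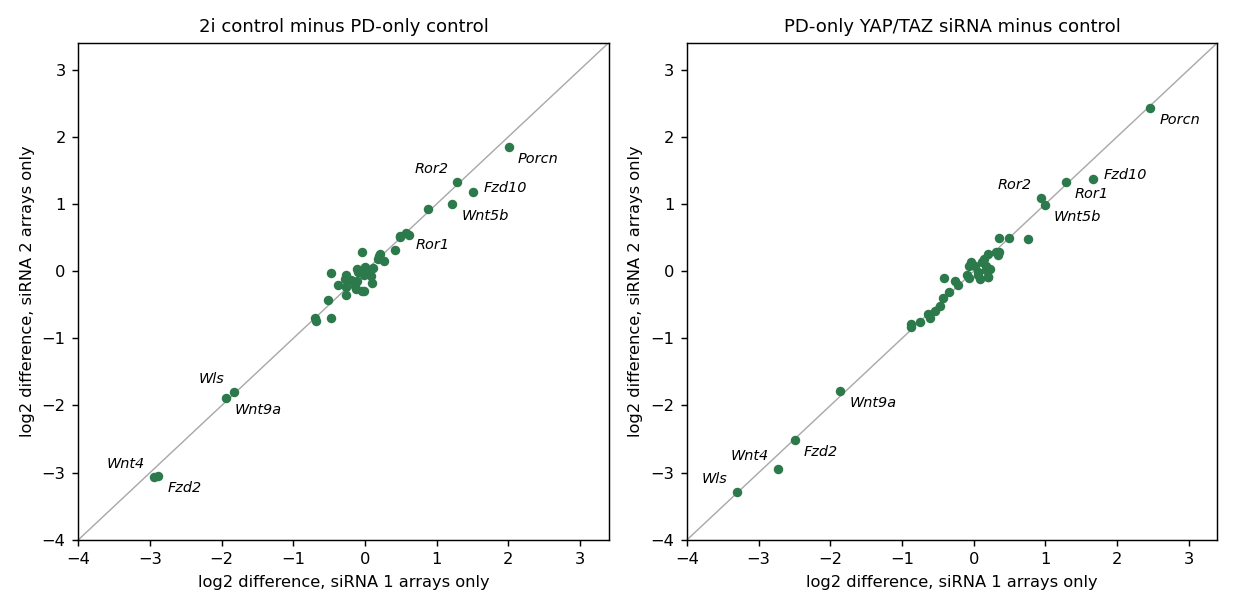
Log2 difference from PD-only control computed from the arrays of siRNA 1 of each kind alone (x axis) and of siRNA 2 of each kind alone (y axis), for all 43 genes. The left panel is 2i control and the right panel PD-only YAP/TAZ siRNA, the line marks equal values, and the 9 genes with a called difference of at least 2-fold are named. These genes have the same sign with either siRNA. They were chosen on the average of both siRNAs, so the shared sign is no separate support.

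Of 26 other secreted and membrane regulators of Wnt signalling measured, 6 were called higher (23.1%, against 31.3% of all genes) and 10 lower (38.5%, against 26.7%) in 2i control than in PD-only control. With YAP/TAZ siRNA the counts were also 6 and 10, against 35.5% and 26.3% of all genes. The medians of their log2 differences were −0.01 and −0.02. Dkk1, a secreted inhibitor of Lrp6, averaged 8.40 in PD-only control, 4.32 in 2i control and 5.11 in the knockdown arm, with log2 differences of −4.08 ± 0.06 and −3.29 ± 0.06. The glypican Gpc3, a cell-surface proteoglycan that binds Wnt, had log2 differences of −2.18 and −2.30, its relative Gpc4 of −1.55 and −1.73, and Rspo1, a secreted enhancer of Wnt signalling, of −1.54 and −1.41. Notum, which removes the lipid that Porcn adds, rose by 1.08 ± 0.04 and 1.48 ± 0.03. Znrf3, a ubiquitin ligase that clears Frizzled from the surface, rose by 0.64 and 0.48, and Lgr4, an R-spondin receptor, by 0.26 and 0.71. Against 2i control, 5 of the 26 were higher (19.2%, against 25.5% of all genes) and 7 lower (26.9%, against 22.8%) with YAP/TAZ siRNA.

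Of 11 planar cell polarity genes measured, which act with Frizzled and Dishevelled, 3 were called higher (27.3%, against 31.3% of all genes) and 7 lower (63.6%, against 26.7%) in 2i control than in PD-only control. With YAP/TAZ siRNA 4 were higher and 4 lower (36.4% each, against 35.5% and 26.3%). Prickle2 rose by 2.22 ± 0.06 and 1.11 ± 0.05, whereas its paralogue Prickle1 fell by 0.97 and 0.20. Daam1, a formin that binds Dishevelled, fell by 0.71 and 0.96. Vangl1 and Vangl2, membrane partners of Prickle, rose by 0.48 and 0.47 in 2i control and by 0.37 and 0.14 with YAP/TAZ siRNA. Against 2i control, 4 of the 11 were higher with YAP/TAZ siRNA (36.4%, against 25.5%) and 5 lower (45.5%, against 22.8%).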

How the data were processed

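The authors deposited log2 expression values of 45101 probe sets, made with RMA per the submitters' processing notes. For its version and the genome build: not given in the sources used here. Trizol RNA was made into biotinylated cRNA with an Affymetrix kit, per the labels. Array medians were 5.51 to 5.55. Genes were named from the platform annotation: 34945 probe sets had 1 symbol, 932 several, and 9160 none. Control probe sets were left out, and the brightest probe set of each gene was kept. limma 3.58.1 (R 4.3.3) fitted 1 mean per group of medium and siRNA over all 22 arrays. An arm is the equal-weight average of its 2 siRNA groups, so a difference can depart slightly from that of the arm means. Calls used Benjamini-Hochberg adjustment over 18193 genes, and a 2-fold call also needed a log2 difference of at least 1. The script was tested on simulated data. Array quality was tested over 12 comparisons with adjusted p-values. Genes named with values in every arm are those with a 2-fold call, and the rest are named with means or differences or counted. Wnt3, Wnt5a, Fzd6 and Lrp6 were shown in full after their values were seen, as were the 4 printed promoters. All 43 Entrez IDs were in the RefSeq gene table. The members and gene lists were chosen with earlier results of these data known. Alternatives were another probe set rule, a filter on dim genes, array centring, other fits, an Actb covariate, each siRNA alone, and leaving out each array in turn. The number of arrays limits the precision.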

Additional observations from a re-analysis of the deposited data

Results flagged for a closer look

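In 5 of 172 sets of 4 arrays (43 genes in the 4 siRNA groups of 4), 1 array stood apart from the other 3 by Dixon's criterion, and chance flags about 1 in 20. Fzd8 was 6.45 on replicate B of the 2i control 1 group against 6.68 to 6.72 on the others. Fzd3 was 7.27 on replicate B of PD-only control 1 against 7.13 to 7.15. Sfrp2 was 8.03 on replicate A of PD-only control 1 against 8.24 to 8.25. Fzd6 was 6.64 on replicate A of YAP/TAZ siRNA 1 against 6.38 to 6.39, and Wnt5b was 5.83 on replicate D of YAP/TAZ siRNA 2 against 5.57 to 5.60.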

How the results depend on the processing

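For the 43 genes, 1374, 1403 and 1403 of 1437 values recomputed per comparison kept their side of the threshold and, where called, their direction (2i control minus PD-only control, YAP/TAZ siRNA minus PD-only control, YAP/TAZ siRNA minus 2i control). A change of sign with no call in either fit was not counted as a change. The 9 genes of 2-fold differences passed the adjusted p threshold against PD-only control in every alternative that could be run for them. These numbered 32 for Wnt5b, which the filter on dim genes left out, 33 for Porcn and 34 for the others. Their size was not always kept. The smallest differences were 0.77 and 0.92 for Fzd10, −0.91 and −0.87 for Wnt9a, and 0.32 and 0.57 for Ror1. Of 45 dimmer probe sets of the 43 genes, 31, 25 and 21 had the same call as the brightest, in the order of comparisons above. Another 10, 15 and 20 were uncalled where the brightest was called. Leaving out dim genes gave 8 genes higher in each comparison with PD-only control, with fewer genes tested. With the mean of all probe sets, 2 genes were at least 2-fold higher in each of these comparisons. Without probe sets marked as able to match more than 1 transcript, 2 were in 2i control, where Porcn and Wnt5b could not be tested. Where the main fit or the alternative gave a call, the sign turned in these cases. The mean of probe sets gave 0.18 for Lrp6 in 2i control and 0.0012 for Fzd7 against 2i control. The Actb covariate gave −0.0055 for Wnt9b in 2i control. Values without a call turned sign in other genes, such as Wnt3a in 2i control (0.03 in the main fit, −0.18 at the lowest). The cause was not tested. With the letter as a replicate block, 12 genes were higher and 14 lower in 2i control than in PD-only control. Same-letter arrays had correlations of deviations of −0.077 to 0.124 (median 0.002), so the letters were not taken as pairs. Leaving out 1 array in turn moved no count of calls by over 1.5 times. The 21 genes below the all-gene median in every arm are the ones the signal over background limits most.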
